A study of Mus musculus with 12 samples.

Results

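The 39 mouse Hox cluster genes were followed library by library in wild-type (WT) and G2A fetal liver and fibroblasts. They were taken by symbol alone, as every entry named Hox with a cluster letter a to d and a paralog number. The rule used no measured value, but earlier results of these data were known when the family was chosen. All 39 were found among the 23235 entries of the liver values and among the 24421 entries of the values for mouse embryonic fibroblasts (MEFs), the cells grown from dissociated embryos. Cluster A held 11 of them, cluster B 10, cluster C 9 and cluster D 9.

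Total RNA was sequenced from WT and G2A livers at E12.5 (days of embryonic development), labelled as 3 littermate pairs without saying which livers form a pair, and from untreated immortalized MEFs of both genotypes. G2A is known as an engineered allele of Psmc1, the gene of the proteasome ATPase Rpt2, and removes the glycine that otherwise carries a myristoyl lipid. The labels give 12 samples in 4 groups of 3: WT liver, G2A liver, WT MEF and G2A MEF. The labels do not say on which strain background the allele is kept, whether the MEF libraries come from separate embryos, lines or cultures, or how the cells were immortalized, so p-values measure only the spread between these samples. The sample labelled G2A MEF 3 matched no column of values and was not analysed here, which leaves 11 libraries.

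Hox genes encode homeodomain transcription factors that give cells along the head-to-tail axis and along the limbs their regional identity. They lie side by side in clusters, and their order on the chromosome follows the order in which they are switched on: low paralog numbers early and toward the head, high numbers late, toward the tail and the ends of the limbs. Fibroblasts taken from different body sites are known to keep a Hox pattern of that site in culture. In fetal liver, Hox genes are known for their part in blood progenitors, and the connective tissue cells of the organ carry them as well.

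Before the results, several libraries need description. Liver values are FPKM (fragments per kilobase of transcript, scaled to library size) with totals of 792987 to 840762 and unknown read depth, whereas MEF values are normalised reads per gene from 36415586 to 37695116 gene reads per library. The library labelled WT MEF 3 stood apart from the other WT MEF libraries. Its correlation with G2A MEF 1 and 2 over all 24421 entries, tested or not, was 0.981 and 0.983. With WT MEF 1 and 2 it was 0.966 and 0.963, as a description over genes that are not independent. On the first principal component of the MEF libraries, which carried 73.4% of the variance, WT MEF 3 lay at 72.5. That was beside the G2A libraries at 51.5 and 55.2 and far from WT MEF 1 and 2 at -87.2 and -92.0. Among the livers G2A liver 3, at -7.91 on the first component, lay between the WT libraries (-23.3 to -13.3) and the other G2A libraries (30.6 and 34.9). Psmc1 was at 178 to 181 FPKM in WT and 145 to 161 in G2A liver, and at 6485 to 8589 and 10658 to 10913 normalised reads in WT and G2A MEFs. Since G2A is a substitution, the level of Psmc1 does not check the genotype labels. In every MEF library the collagen genes among the 10 mesenchyme markers were high. All 10 together summed to 493619 to 759794 normalised reads in WT and 255655 to 261947 in G2A. Of the 10, 7 reached 10 normalised reads in every library, whereas Lum ranged from 1.04 to 75.2. Hepatoblast markers, such as albumin, summed to 9189 to 11458 FPKM in WT and 9206 to 12886 in G2A liver. In such bulk samples fewer cells of a type and less RNA per cell cannot be told apart.

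The MEF libraries held 2 Hox patterns. In WT MEF 1 and 2 the reads came from the high paralogs of clusters D and A, while clusters B and C were near 0. In WT MEF 3 and both G2A libraries clusters B and C were high over nearly their whole length, and the high paralogs of cluster D were near 0. The summed level of all 39 genes per kilobase of exon was close in all 5 libraries, at 8599, 8125 and 9154 normalised reads per kilobase in WT MEF 1 to 3 and 9687 and 8847 in G2A MEF 1 and 2. Cluster D made up 78.7% and 77.9% of that sum in WT MEF 1 and 2, against 2.60% in WT MEF 3 and 2.27% and 2.11% in G2A MEF 1 and 2. Cluster C made up 0.0145% and 0.0108% in WT MEF 1 and 2, 52.2% in WT MEF 3 and 50.0% and 48.7% in the G2A libraries. Cluster B held 0.522% and 0.476%, then 37.1%, and 37.7% and 39.3%, in the same order. Cluster A was present in all 5, with 20.7% and 21.6% in WT MEF 1 and 2, 8.05% in WT MEF 3 and 10.03% and 9.85% in the G2A libraries. The grouping of libraries by pattern was read from these values. Leaving out WT MEF 3, as is done below, sets the 2 patterns against each other, so that fit restates them.

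**Figure D1:**
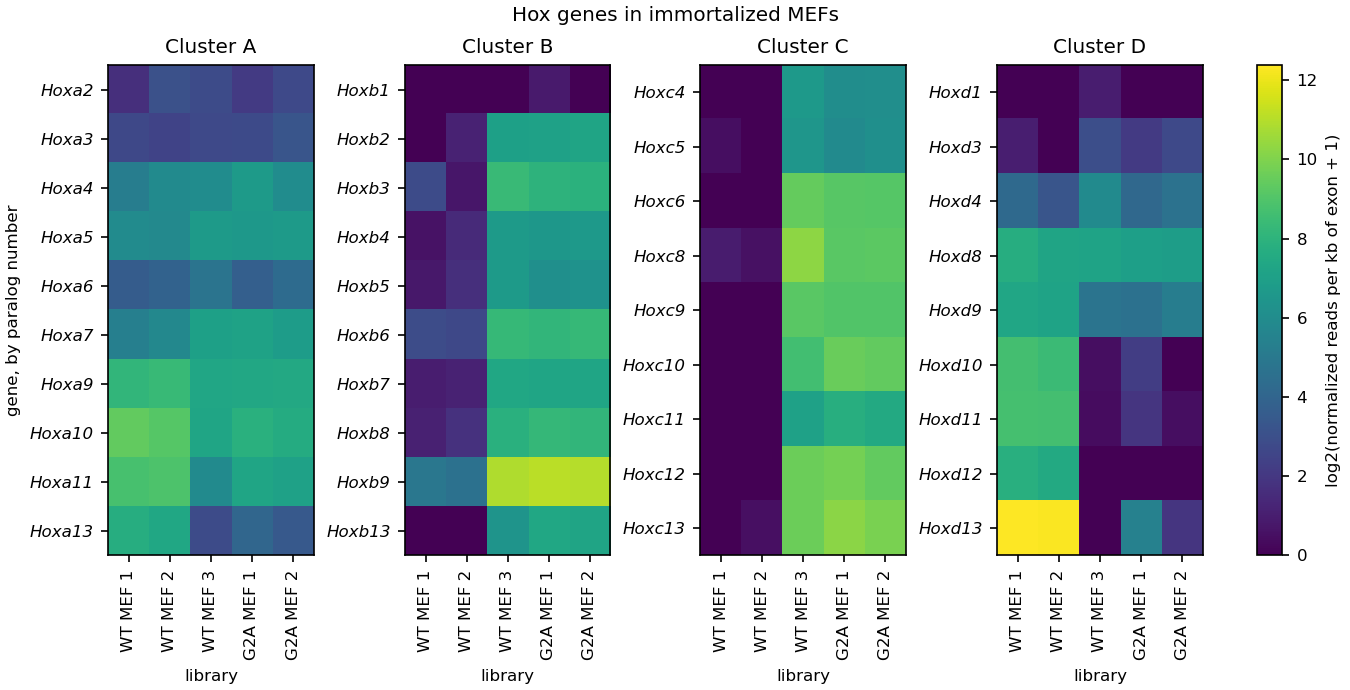
Heat map of MEF values as log2(normalised reads per kilobase of exon + 1), with 38 Hox genes ordered by cluster and paralog number on one axis and the 5 libraries on the other. Clusters B and C are dark in WT MEF 1 and 2 and bright in WT MEF 3 and both G2A libraries, and the paralogs 10 to 13 of cluster D show the reverse.

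Cluster D lies on chromosome 2 (NCBIM37, plus strand, 74506367 to 74603200). Hoxd13, the last gene of the cluster and a regulator of digits and of the genital and hindgut ends of the body, was at 13209.7 and 12675 normalised reads in WT MEF 1 and 2, 0 in WT MEF 3, and 105 and 6.86 in G2A MEF 1 and 2. Per kilobase it was the highest of all 39 genes in WT MEF 1 and 2, where it alone made up 61.9% and 62.8% of the Hox sum. Hoxd12 was at 576 and 481 in WT MEF 1 and 2 and at 0 in the 3 other libraries, where a count of 0 allows up to 3 reads, as counting error only. Hoxd11, which acts with Hoxa11 in the forearm, was at 2306 and 2182 in WT MEF 1 and 2, 1.88 in WT MEF 3, and 14.8 and 1.96 in the G2A libraries. Hoxd10, a gene of hindlimb motor neurons and limbs, was at 1100.5 and 910.3, then 0.940, and 9.86 and 0. These 4 neighbours together had 32250 reads in WT MEF 1 and 2 and 143 reads in the other 3 libraries, with no library in between. Hoxd9 showed a smaller step in the same direction, from 353 and 310.04 in WT MEF 1 and 2 to 56.4 in WT MEF 3 and 52.3 and 79.4 in the G2A libraries. Hoxd8, its neighbour toward the low-numbered end, was at 572, 409 and 398 in the WT libraries and 348 and 322 in the G2A libraries. The groups did not overlap for Hoxd8, yet WT MEF 3 lay close to WT MEF 2. Hoxd4 and Hoxd3 were low, with the highest values of both in WT MEF 3 (151 and 39.5), and Hoxd1 was at 0 in 4 libraries and 1.88 in WT MEF 3. Hoxd3 and Hoxd4 share 1725 exon bases on one strand, so their counts may be split between them. Evx2, the homeobox gene just beyond Hoxd13, was at 134 and 135 in WT MEF 1 and 2, at 0 in WT MEF 3 and at 0.986 and 0 in the G2A libraries.

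**Figure D2:**
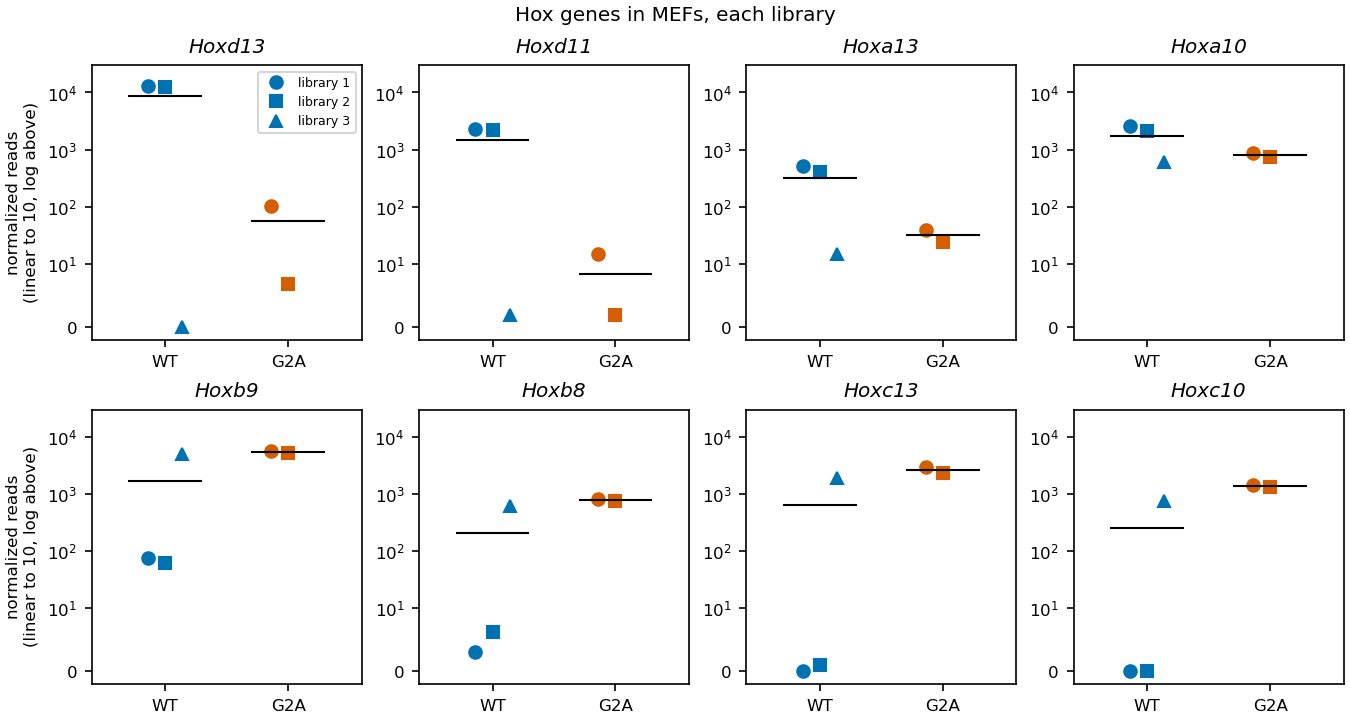
Normalised reads (linear to 10, logarithmic above) of Hoxd13, Hoxd11, Hoxa13, Hoxa10, Hoxb9, Hoxb8, Hoxc13 and Hoxc10 in each MEF library, with 1 point per library, marker shapes for the library number and lines for the group means. In all 8 panels WT MEF 3 sits on the side of the G2A points, for example at 4949 for Hoxb9 beside 5626 and 5197.

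Cluster A lies on chromosome 6 (minus strand, 52105366 to 52210874). Its high paralogs were lower in WT MEF 3 and the G2A libraries without falling to 0. Hoxa13, the partner of Hoxd13 in the outer limb and hindgut, was at 517 and 410.3 in WT MEF 1 and 2, 15.0 in WT MEF 3, and 39.4 and 24.5 in G2A MEF 1 and 2. Hoxa11 was at 1185 and 1295, then 158, and 419 and 358. Hoxa10, known for the uterus, limb and blood, was the highest gene of the cluster per kilobase averaged over all libraries. It was at 2558 and 2131 in WT MEF 1 and 2, 599 in WT MEF 3, and 884 and 746 in the G2A libraries. The gap narrowed toward Hoxa9, a gene of blood progenitors and of the limb, which was at 990.2 and 1122, then 562, and 589 and 622. For all 4 of these genes WT MEF 3 lay below both G2A libraries, so the WT range enclosed the G2A values. The order reversed at Hoxa7, at 114 and 153 in WT MEF 1 and 2, 369 in WT MEF 3, and 403 and 329 in the G2A libraries. Hoxa5 was at 117 and 104 in WT MEF 1 and 2, 202 in WT MEF 3, and 178 and 197 in the G2A libraries. Hoxa3, a gene of the throat arches, was at 37.1, 31.3 and 38.5 in WT and 39.4 and 59.8 in G2A. Hoxa4 was at 58.7, 96.0 and 101 in WT and 169 and 103 in G2A. For Hoxa3 and Hoxa4 the groups did not overlap in normalised reads, but they did in whole reads before scaling. Hoxa3 had 41 whole reads in WT MEF 3 and 40 in G2A MEF 1. Hoxa4 had 108 in WT MEF 3 and 105 in G2A MEF 2. Hoxa2 (5.15 to 17.7) and Hoxa6 (22.7 to 52.6) were low in every library and their groups overlapped.

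Cluster B lies on chromosome 11 (plus strand, 96055630 to 96229570). Its 9 genes other than Hoxb1 ranged from 0 to 74.2 normalised reads in WT MEF 1 and 2, with 213 reads in all, and from 187 to 5626 in WT MEF 3 and the G2A libraries, with 29377 reads. Hoxb9, a gene of the trunk skeleton, led the cluster in every library, at 74.2 and 60.5 in WT MEF 1 and 2, 4949 in WT MEF 3, and 5626 and 5197 in G2A MEF 1 and 2. In WT MEF 3 and G2A MEF 1 and 2 it alone made up 21.0%, 22.6% and 22.8% of the Hox sum per kilobase. Hoxb13, the most distant gene of the cluster and one known for the tail and prostate, was at 0 and 0 in WT MEF 1 and 2, 187 in WT MEF 3, and 366 and 324 in the G2A libraries. Hoxb2, a hindbrain gene, was at 0 and 4.18, then 429, and 442 and 494. Hoxb8, known for trunk patterning and for holding blood progenitors in an immature state, was at 3.09 and 6.26, then 613, and 809.6 and 741. In these 4 genes every G2A library lay above every WT library, WT MEF 3 included. For Hoxb2, Hoxb8 and Hoxb9, WT MEF 3 lay far closer to the G2A values than to WT MEF 1 and 2, whereas for Hoxb13 it lay about midway. Hoxb3, Hoxb4, Hoxb5, Hoxb6 and Hoxb7 reached at most 18.5 in WT MEF 1 and 2 (Hoxb3) and at least 200.2 in the other libraries (Hoxb5). Hoxb1, the hindbrain gene at the low-numbered end, had 1.97 normalised reads in G2A MEF 1 and 0 elsewhere. Hoxb7 and Hoxb8 share 1069 exon bases on one strand and are uncertain against each other.

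Cluster C lies on chromosome 15 (plus strand, 102751534 to 102867274). Its 9 genes had 5 reads in all in WT MEF 1 and 2 and 30468 reads in WT MEF 3 and the G2A libraries. Hoxc13, a regulator of hair and nail, was at 0 and 1.04 in WT MEF 1 and 2, 1914 in WT MEF 3, and 2910.1 and 2304 in G2A MEF 1 and 2. Hoxc12, its neighbour, was at 0 and 0, then 794, and 900.3 and 701. Hoxc11, a hindlimb gene, was at 0 and 0, then 273, and 435 and 365. For Hoxc10, which marks hindlimb and lumbar levels, the values were 0 and 0, then 748, and 1414 and 1309.7. Hoxc9 and Hoxc6, genes of the thoracic trunk, were at 0 in WT MEF 1 and 2, at 1442 and 1726 in WT MEF 3, and at 1277 and 1253, and 1448 and 1406, in the G2A libraries. Hoxc8, also thoracic, was higher in WT MEF 3, at 2837, than in the G2A libraries, at 1378 and 1407, after 2.06 and 1.04 in WT MEF 1 and 2. In these 3 libraries the genes from Hoxc4 (257, 171 and 175) to Hoxc13 were thus all above 0, from neck-level to tail-level members. Hotair, a noncoding RNA transcribed from between Hoxc11 and Hoxc12 on the other strand, was at 0 in WT MEF 1 and 2, 149 in WT MEF 3 and 155 and 155 in the G2A libraries. It was named because its values match the cluster around it, after they had been seen.

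The bases just before the start of Hoxd13, Hoxa13, Hoxb8 and Hoxd8 are shown because these genes bracket the MEF pattern. Hoxd13 was near 0 in the libraries where Hoxb8 was high, Hoxa13 was lower there but above 0, and Hoxd8 varied least among them. Each line gives the 250 bases upstream of a start, 5′ to 3′, with CG dinucleotides in capitals. The letters come from RefSeq promoters of GRCm38.p6 and were placed on NCBIM37 by an exact, unique match, where no annotated exon touches them. 22 of the 39 genes had an entry, with 24 windows in all.
Hoxd13 (chr2:74506032-74506281, plus strand): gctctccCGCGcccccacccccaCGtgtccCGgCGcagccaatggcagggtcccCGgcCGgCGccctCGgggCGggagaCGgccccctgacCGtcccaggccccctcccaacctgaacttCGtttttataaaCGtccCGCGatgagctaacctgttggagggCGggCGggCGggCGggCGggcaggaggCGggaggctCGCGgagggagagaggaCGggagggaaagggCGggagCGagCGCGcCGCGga
Hoxa13 (chr6:52210875-52211124, minus strand): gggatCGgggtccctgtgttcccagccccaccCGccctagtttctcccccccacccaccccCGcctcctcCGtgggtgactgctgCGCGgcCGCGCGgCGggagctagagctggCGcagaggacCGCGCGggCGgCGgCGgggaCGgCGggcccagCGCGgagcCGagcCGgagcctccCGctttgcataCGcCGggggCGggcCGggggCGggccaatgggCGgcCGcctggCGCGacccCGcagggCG
Hoxb8 (chr11:96142969-96143218, plus strand): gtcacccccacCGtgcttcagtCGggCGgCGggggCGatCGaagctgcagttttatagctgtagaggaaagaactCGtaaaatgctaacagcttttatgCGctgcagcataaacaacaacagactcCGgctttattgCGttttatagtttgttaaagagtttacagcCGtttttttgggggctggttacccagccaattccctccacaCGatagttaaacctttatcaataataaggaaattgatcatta
Hoxd8 (chr2:74542422-74542671, plus strand): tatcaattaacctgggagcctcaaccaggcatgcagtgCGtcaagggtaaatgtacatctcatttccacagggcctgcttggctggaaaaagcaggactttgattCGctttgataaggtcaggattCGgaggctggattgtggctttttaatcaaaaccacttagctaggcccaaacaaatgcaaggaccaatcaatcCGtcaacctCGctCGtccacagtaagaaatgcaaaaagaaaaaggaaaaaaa
CG dinucleotides numbered 31 before Hoxd13, 35 before Hoxa13, 12 before Hoxb8 and 6 before Hoxd8. Of all 32851 windows of this length, 5.19% held at least as many as Hoxd13 and 2.97% at least as many as Hoxa13, against 33.5% for Hoxb8 and 50.4% for Hoxd8. The 24 Hox windows held 2 to 35, and the median over all windows was 6. The motif TGATTNAT, bound by HOX proteins with their PBX partners, lay on either strand in 2 of the 24 Hox windows and in 2.82% of all windows. TTTATNG, preferred by HOX proteins of high paralog number, lay in 2 of the 24 and in 9.81% of all, and 3 of its matches were before Hoxb8. The 2 motifs were counted separately, so matches may overlap, and they are descriptions of letters, not of binding. No match to TGATTNAT lay in the 4 windows printed here.

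Each cluster also carries small RNA genes, shown because one of them pairs with the RNA of members that differed between the MEF libraries. Mature microRNAs of the miR-196 family, encoded in clusters A, B and C, and of the miR-10 family, encoded in clusters B and D, were taken from RefSeq, with the seed (bases 2 to 8) in capitals.
mmu-miR-196a-5p: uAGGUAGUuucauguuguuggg
mmu-miR-196b-5p: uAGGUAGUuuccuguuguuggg
mmu-miR-10a-5p: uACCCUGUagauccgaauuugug
mmu-miR-10b-5p: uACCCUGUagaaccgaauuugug
Within each pair the seeds are identical, and the seeds of the 2 families differ. The best match to miR-196a over the members was a stretch of 22 bases on chr11:96146202-96146223 (NCBIM37, plus strand), in an exon that the annotation gives to both Hoxb8 and Hoxb7, where it is an untranslated region. It is printed with the bases opposite the seed in capitals.
Site in Hoxb8 and Hoxb7: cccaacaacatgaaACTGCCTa
21 of its 22 bases form Watson-Crick pairs with miR-196a and 1 forms a G:U pair, opposite position 5 from the 5′ end of the microRNA, with 0 unpaired. The next best member, Hoxc6, reached 16 Watson-Crick pairs. The entry Mir196a-1, the hairpin between Hoxb9 and Hoxb13, was at 1.03 and 2.09 normalised reads in WT MEF 1 and 2, 121 in WT MEF 3, and 51.3 and 68.6 in the G2A libraries. Hoxb8 and Mir196a-1 were thus high in the same 3 libraries. Mir196b, beside Hoxa9, had the opposite order, at 16.5 and 23.0, then 2.82, and 8.88 and 3.92, but it shares 85 exon bases with Hoxa9 in the annotation. The entries Mir196a-2, Mir10a and Mir10b were listed at 0 in every library of both tissues. Reads over hairpin entries of total RNA do not measure mature microRNA, so pairing and level cannot be joined here.

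With all 5 MEF libraries, no Hox gene passed the test for a difference between G2A and WT. The test was limma on log2(normalised reads + 1) with Benjamini-Hochberg adjustment at 0.05 over 13241 genes, of which 37 were Hox genes. Hoxb1 and Hoxd1 were under the filter of 10 normalised reads in at least 2 libraries. Of all genes tested, 0% were called higher and 0% lower in G2A, also by edgeR on the whole reads, and 0 Hox genes had an unadjusted p under 0.05 (limma), against 6.9% higher and 7.48% lower of all genes. The smallest adjusted p of a member in limma was 0.36, for Hoxb13, with a log2 difference (G2A minus WT) of 5.91 (SE 2.47). Hoxc13 differed by 7.36 (SE 3.37), Hoxb9 by 4.25 (SE 1.999) and Hoxd13 by -4.26 (SE 4.53), with WT libraries on both sides of the G2A values for Hoxd13. The groups did not overlap for 10 of 37 genes higher in G2A (27.0%), among them Hoxb2, Hoxb8, Hoxb9, Hoxb13, Hoxc10, Hoxc11 and Hoxc13, against 18.9% of all genes tested. They did not overlap for 1 gene lower in G2A (2.70%), Hoxd8, against 18% of all. The median log2 difference of the 37 was 1.97 and that of all genes 0.015. For 17 of the 37, most of them in clusters B and C, both G2A libraries but not all WT libraries reached 10 normalised reads, so these counts and medians support nothing on their own. Hoxd12, at 0 in both G2A libraries, was at least 119-fold lower there than the WT mean, with a floor of 3 reads per library, although WT MEF 3 was at 0 too.

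Without WT MEF 3 the result was of another order. Then 19 Hox genes were called higher in G2A and 9 lower, where 11.7% and 11.5% of all genes tested were called in those directions (limma, same adjustment). The higher genes were Hoxa7, all 9 genes of cluster B that were tested and all 9 genes of cluster C. The lower genes were Hoxa9, Hoxa10, Hoxa11, Hoxa13 and Hoxd9 to Hoxd13. WT MEF 3 was singled out by its values, so these calls describe the 2 patterns and are no separate support. Cluster C genes were at most 2.06 normalised reads in WT MEF 1 and 2. They and most cluster B genes entered the test only by being high in the other libraries. Hoxd10 to Hoxd13 entered only by being high in WT MEF 1 and 2. The 9 genes not called included Hoxa5, Hoxa6, Hoxd3, Hoxd4 and Hoxd8. Hoxd13 was then lower by 8.81 on the log2 scale (log2 difference -8.81, SE 1.13, limma adjusted p 0.00596) and Hoxd12 at least 179-fold lower. The log2 difference was -3.85 for Hoxa13, -1.52 for Hoxa10 and -0.80 for Hoxa9. Hoxb9 was higher by 6.31 (SE 0.156, limma adjusted p 0.000195) and Hoxa7 by 1.45. For genes at 0 in WT MEF 1 and 2 only lower bounds can be given, such as at least 435-fold higher for Hoxc10, 456-fold for Hoxc6 and 110-fold for Hoxb13. The groups then did not overlap for 24 Hox genes higher and 10 lower in G2A, against 34.6% and 33.1% of all genes. When any of the other 4 libraries was left out in place of WT MEF 3, 0 Hox genes were called. With all 5 libraries DESeq2 on the whole reads called 1 Hox gene, Hoxd11, lower in G2A (log2 difference -7.48, adjusted p 0.0192), where it called 3.1% of genes higher and 5.1% lower. So the genotype comparison of Hox genes in MEFs turned on 1 library. Compared one by one, WT MEF 3 was within 2-fold of the G2A mean for 29 of the 37 genes, whereas the mean of WT MEF 1 and 2 was within 2-fold of it for 9 of 37. These shares were not computed over all genes, so they only restate the Hox pattern. Among the exceptions of WT MEF 3 were Hoxa11, Hoxa13, Hoxc8, Hoxd10, Hoxd11 and Hoxd13.

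In fetal liver the summed level of Hox genes was lowest for paralogs 9 to 13 in all 6 libraries. It was highest for paralogs 1 to 4 in 5 libraries and for paralogs 5 to 8 in G2A liver 1. The sum of paralogs 9 to 13 was higher in every G2A liver than in every WT liver. Of its genes only Hoxa9, Hoxa10, Hoxb9, Hoxc9 and Hoxc10 were tested, and none passed the test over all genes. The summed level of paralogs 1 to 4 was 68.6, 52.4 and 45.0 FPKM in WT liver 1 to 3 and 62.5, 66.5 and 26.9 in G2A liver 1 to 3. For paralogs 5 to 8 the sums were 58.7, 36.9 and 36.8 in WT and 67.3, 60.5 and 21.0 in G2A. Both ranges overlapped between the genotypes. For paralogs 9 to 13 the sums were 7.87, 1.15 and 3.25 FPKM in WT and 46.2, 24.2 and 10.9 in G2A, with no overlap. Their share of the whole Hox sum was 5.83%, 1.27% and 3.82% in WT and 26.3%, 16.0% and 18.5% in G2A. G2A liver 3 had the lowest total of all 6 libraries, 58.8 FPKM, yet its share of high paralogs was near that of the other G2A livers. The other totals were 135, 90.4 and 85.1 in WT and 176 and 151 in G2A.

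**Figure D3:**
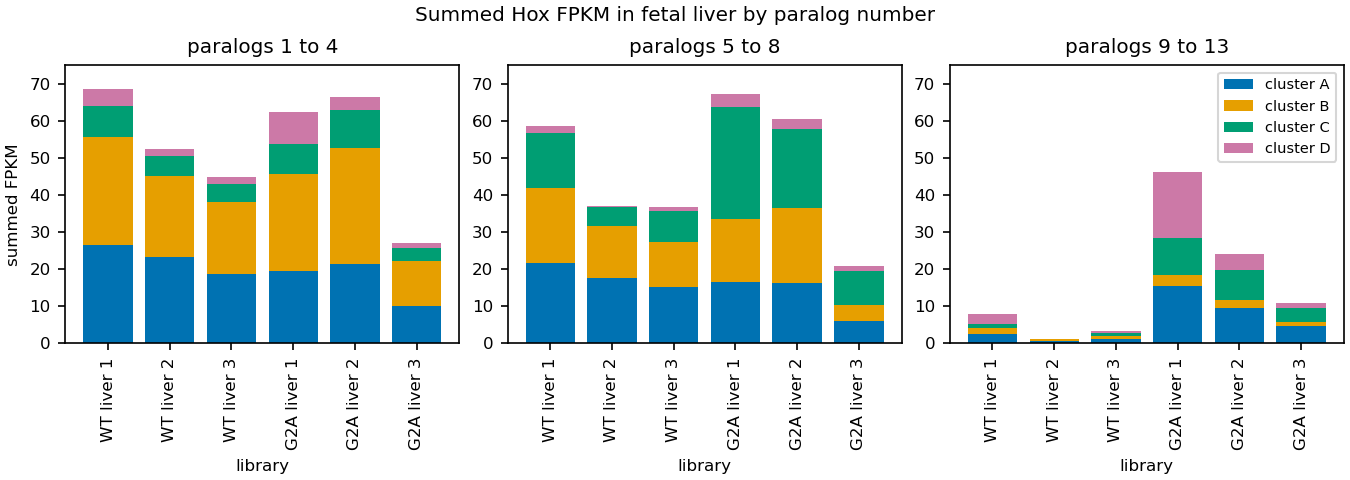
Stacked bars of summed FPKM per liver library in 3 panels, for paralogs 1 to 4, 5 to 8 and 9 to 13, with 1 colour per cluster. In the panel of paralogs 9 to 13 no cluster exceeds 2.64 FPKM in a WT library, while cluster A reaches 15.4 and cluster D 17.8 in G2A liver 1.

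**Figure D4:**
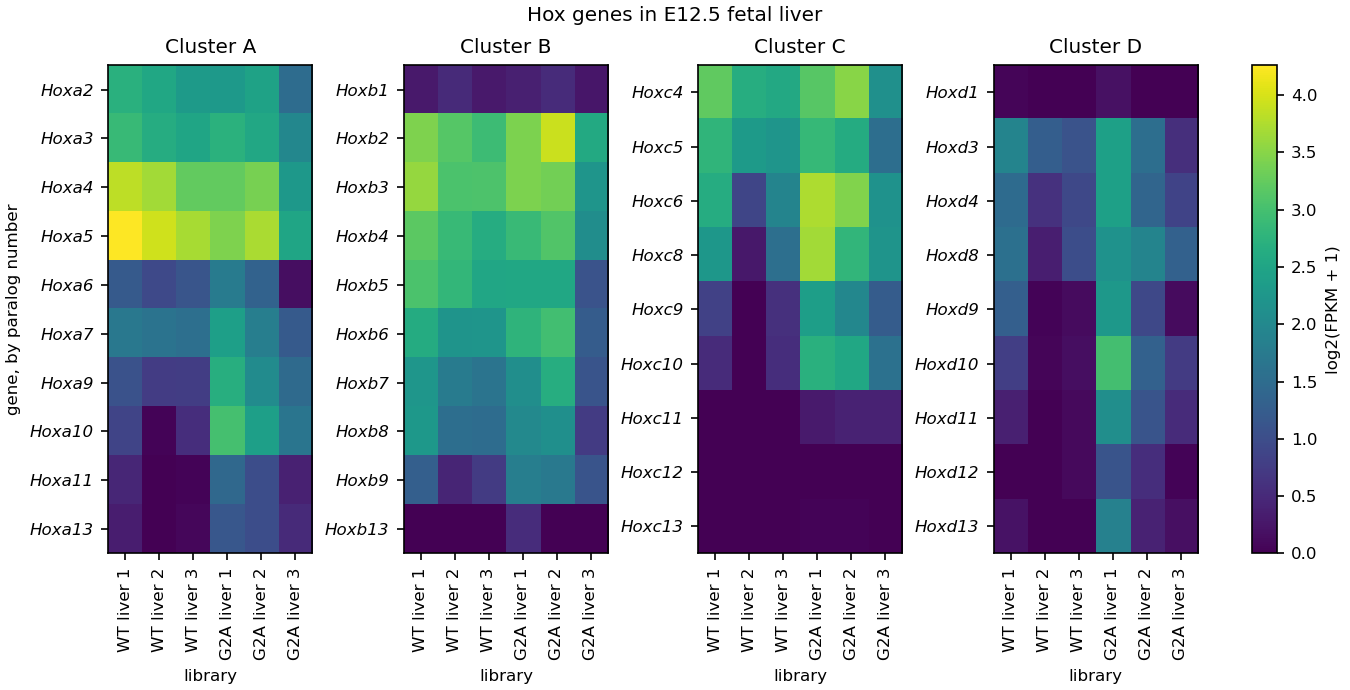
Heat map of liver values as log2(FPKM + 1) with 38 Hox genes ordered by cluster and paralog number and the 6 libraries side by side. The brightest cell is Hoxa5 in cluster A and Hoxb2 or Hoxb3 in cluster B in every library, while in G2A liver 1 Hoxc6 leads cluster C and Hoxd10 cluster D. Hoxa9, Hoxa10 and Hoxc6 to Hoxc10 are brighter in G2A liver 1 and 2 than in the WT libraries.

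Hoxa5, known for lung and neck patterning, had the highest mean level over all livers, at 18.2, 14.6 and 12.0 FPKM in WT and 9.89, 12.2 and 4.66 in G2A. Its log2 difference was -0.75 (SE 0.328, limma adjusted p 0.251), and G2A liver 2 lay inside the WT range. Hoxb2 led cluster B by its mean, at 9.79, 7.79 and 6.60 in WT and 9.70, 14.1 and 5.02 in G2A. Hoxc4, a neck-level gene and the leader of cluster C, was at 8.37, 5.31 and 4.92 in WT and 7.93, 10.3 and 3.39 in G2A. Hoxd3, the leader of cluster D, was at 2.78, 1.41 and 1.12 in WT and 4.35, 1.90 and 0.482 in G2A. In each of these 4 the lowest value was in G2A liver 3, and the groups overlapped. The limma adjusted p was 0.824 for Hoxb2, 0.878 for Hoxc4 and 0.931 for Hoxd3. Within cluster A, Hoxa4 (13.3, 11.8 and 8.46 in WT, 8.43, 9.48 and 3.84 in G2A) was next to Hoxa5. Neighbouring genes in this order, such as Hoxa5 and Hoxa4 or Hoxb2 and Hoxb3, overlapped in their ranges over the libraries of 1 genotype. 18 of the 23 genes with paralog numbers 1 to 8 were lowest in G2A liver 3, ties included. Hoxb1 (0.189 to 0.436 FPKM) and Hoxd1 (0 to 0.137) stayed under 1 FPKM in every library.

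Among the high paralogs, Hoxc10 had the smallest adjusted p of all members. It was at 0.446, 0 and 0.475 FPKM in WT and 5.50, 4.81 and 2.005 in G2A, a log2 difference of 1.91 (SE 0.326, limma adjusted p 0.0902). Hoxa10 was at 0.838, 0.0291 and 0.474 in WT and 7.06, 4.27 and 2.17 in G2A (1.86, SE 0.377, limma adjusted p 0.0994). Hoxc9 was at 0.774, 0 and 0.498 in WT and 4.26, 2.93 and 1.36 in G2A (1.40, SE 0.346, limma adjusted p 0.12). In all 3 the lowest G2A library, G2A liver 3, was above the highest WT library. Hoxa9 was at 1.11, 0.688 and 0.701 in WT and 5.40, 3.16 and 1.77 in G2A (1.20, SE 0.303, limma adjusted p 0.122). Next to these came genes whose WT liver 1 reached into the G2A range. Hoxc8 was at 3.76, 0.210 and 1.93 in WT and 11.7, 6.01 and 3.60 in G2A, Hoxc6 at 5.23, 0.861 and 2.80 in WT and 12.3, 9.92 and 3.53 in G2A. For Hoxb9 the values were 1.43, 0.365 and 0.674 in WT and 2.52, 2.32 and 1.16 in G2A. Differences are on the scale of log2(FPKM + 1), which understates those of low genes.

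**Figure D5:**
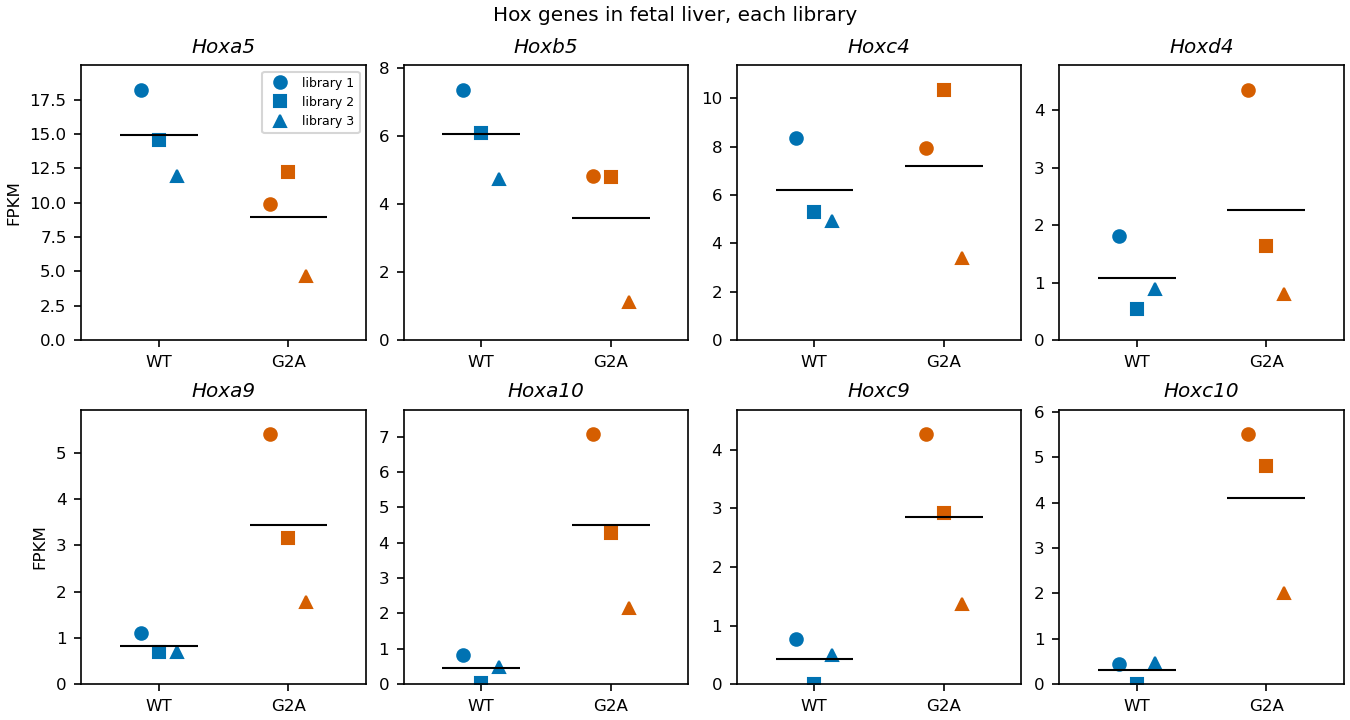
FPKM of Hoxa5, Hoxb5, Hoxc4, Hoxd4, Hoxa9, Hoxa10, Hoxc9 and Hoxc10 in each liver library, with 1 point per library, marker shapes for the library number and lines for the group means. The groups overlap for Hoxa5, Hoxb5, Hoxc4 and Hoxd4, whereas all 3 G2A points lie above all 3 WT points for Hoxa9, Hoxa10, Hoxc9 and Hoxc10.

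26 of the 39 genes passed the liver filter of 1 FPKM in at least 3 libraries: 9 of cluster A, 8 of B, 6 of C and 3 of D. None was called, where limma called 0.0155% of 12938 genes higher and 0.00773% lower in G2A (Benjamini-Hochberg at 0.05). With library weights estimated by limma, 11 of the 26 were called higher and 0 lower, where 26.1% and 20.7% of all genes were called. With an unadjusted p under 0.05, 6 of 26 were higher (23.1%; Hoxa9, Hoxa10, Hoxb9, Hoxc8, Hoxc9 and Hoxc10) against 9.07% of all genes, and 0 were lower against 12.4%. The groups did not overlap for 5 genes higher in G2A (19.2%), against 11.8% of all genes tested, and for 0 lower, against 15.7%. The median log2 difference was 0.10 over the 26 and 0.01 over all genes. Of the 26, 8 passed the filter with all G2A but not all WT libraries, and Hoxa10, Hoxc9 and Hoxc10 had no WT library at 1 FPKM. Such genes could enter only by being high in G2A, so the counts describe and do not support.

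The 13 genes under the filter were Hoxb1, Hoxb13, Hoxd1 and high paralogs of clusters A, C and D. Hoxa13 was at 0.265, 0 and 0.0525 FPKM in WT and 1.23, 1.004 and 0.428 in G2A. Hoxd10, at 0.739, 0.0359 and 0.110 in WT, was at 6.90, 1.51 and 0.671 in G2A, where its value in G2A liver 1 was the highest of cluster D in that library. Hoxd13 was at 0.154, 0 and 0 in WT and 2.66, 0.333 and 0.130 in G2A. Hoxd11 was at 0.290, 0 and 0.0719 in WT and 3.30, 1.16 and 0.439 in G2A, with no overlap. For Hoxd10, Hoxd11 and Hoxd13, G2A liver 1 was far above the other G2A livers, while Hoxd8, which was tested, was closer between them at 3.48, 2.77 and 1.501. Hoxc11 was at 0.239, 0.328 and 0.332 in G2A and listed at 0 in each WT liver, and Hoxc12 was listed at 0 in all 6 livers. Counted over all members, tested or not, 15 of the 16 genes with paralog numbers 9 to 13 had a higher G2A mean and 0 a lower one. Of the 23 genes with numbers 1 to 8, 14 had a higher and 9 a lower G2A mean. Every G2A liver was above every WT liver for 7 of the 16, where 8.86% of all 23235 entries had such an order. Those entries include many at 0, and among the genes tested the share was 11.8%. The genes share libraries and neighbours, so these counts are not independent: 13 of the 16 were highest in G2A liver 1, and all 15 that were above 0 had their lowest value, ties included, in WT liver 2.

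Without G2A liver 3, 6 Hox genes were called higher in G2A and 0 lower, where limma called 12.4% and 12% of all genes. They were Hoxa9 (log2 difference 1.502, adjusted p 0.0133), Hoxa10 (2.21, 0.012), Hoxb9 (0.95, 0.0433), Hoxc6 (1.77, 0.047), Hoxc9 (1.71, 0.0153) and Hoxc10 (2.26, 0.00977). The groups then did not overlap for 12 genes higher and 0 lower in G2A, against 33.2% and 27.3% of all genes. When any of the other 5 livers was left out, 0 were called. The 6 were 23.1% of the 26 Hox genes tested, against 12.4% of all genes in that direction, and all 6 had entered the test with a WT library under 1 FPKM while every G2A library was above it.

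Several sets of cell type markers were also unequal between WT and G2A livers, some higher and some lower in G2A. The 10 mesenchyme markers summed to 672, 474 and 717 FPKM in WT and 1578, 2302 and 1098 in G2A, and 6 of 10 did not overlap, all higher in G2A, where 11.8% of all genes tested were higher and 15.7% lower without overlap. Postn, a secreted protein of connective tissue, was at 35.0, 24.5 and 52.9 FPKM in WT and 191, 304 and 113 in G2A (log2 difference 2.36, limma adjusted p 0.0902). Lum, a collagen-binding proteoglycan, was at 56.8, 46.2 and 71.7 in WT and 189.9, 241 and 121 in G2A. For mesothelium, the lining of the organ, 4 of 5 markers were higher in G2A without overlap, with sums of 37.3 to 46.9 in WT and 44.1 to 100.5 in G2A. The 8 neural markers were in the other direction, at sums of 21.9 to 45.2 FPKM in WT and 2.18 to 21.0 in G2A, with 4 of 8 lower without overlap. The 5 markers of stomach and gut mesenchyme summed to 57.6 to 74.4 in WT and 11.8 to 55.04 in G2A, among them Barx1, a stomach gene, at 44.1, 51.5 and 39.7 in WT and 4.16, 35.2 and 4.39 in G2A. The 7 markers of pancreas and duodenum, 2 of them tested, summed to 6.07 to 10.01 in WT and 1.29 to 2.73 in G2A. All 8 erythroid markers had a log2 difference below 0, 2 of them without overlap, with sums of 2919, 2353 and 3335 in WT and 1831, 1551 and 3040 in G2A. All 6 endothelial markers had one above 0, 3 of them without overlap, with sums of 74.6 to 85.4 in WT and 83.2 to 101 in G2A. Hepatoblast markers were higher without overlap for 3 of 8 (Dlk1, Krt8 and Krt18), while 3 of 8 had a log2 difference below 0. Macrophage markers were higher without overlap for 2 of 7, while 3 of 7 had one below 0. Skeletal muscle markers summed to 237 in G2A liver 1 and to 6.65 to 33.9 in the other 5 livers. Of the 237, Actc1 alone gave 232, while Myod1 (1.58) and Myog (2.44) in G2A liver 1 lay inside their WT ranges. Blood progenitor markers overlapped, at 139 to 177 in WT and 106 to 243 in G2A. No member of these lists was called by limma, and their part in the Hox values was not tested. Of the 45 regional transcription factors of mesenchyme other than Hox genes, 29 were tested and 0 called, with a median log2 difference of 0.60. Without overlap, 13 were higher and 4 lower in G2A (11.8% and 15.7% of all genes tested). Msx2, a limb and skull factor, was at 0.0898, 0.203 and 0.593 FPKM in WT and 5.61, 6.50 and 2.50 in G2A, and Alx4, a factor of limb and face, at 0.352, 0.307 and 1.08 in WT and 7.01, 6.05 and 3.01 in G2A (limma adjusted p 0.0902 for both). In both, as in Hoxc10 and Hoxa10, all G2A livers were above all WT livers and G2A liver 3 was the lowest of the G2A livers.

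The cofactors and regulators of Hox genes were read from lists. TALE homeodomain proteins (PBX, MEIS and PKNOX), which bind DNA together with HOX proteins, had 9 members tested in each tissue and 0 called, with a median log2 difference of 0.04 in liver and 0.26 in MEFs. In liver Pknox1 was at 10.9, 10.1 and 9.35 FPKM in WT and 8.99, 9.04 and 8.43 in G2A, and Pbx4 at 1.59, 1.19 and 1.73 in WT and 1.73, 2.14 and 1.91 in G2A. In MEFs Pknox2 was at 241 and 179 normalised reads in WT MEF 1 and 2, 25.4 in WT MEF 3 and 32.5 and 17.6 in G2A, and Meis2 at 668 and 887, then 2521, and 2287 and 1924. Both MEF genes had the split of the Hox clusters, WT MEF 3 with the G2A libraries. The Polycomb repressors, which keep silent Hox genes off, had all 24 members tested and 0 called in either tissue, with medians of 0.07 in liver and -0.04 in MEFs. Ezh2, the methyltransferase of Polycomb repressive complex 2, was at 60.2, 62.7 and 60.1 FPKM in WT and 53.2, 49.0 and 52.0 in G2A liver (log2 difference -0.24, limma adjusted p 0.11). Phc3 was at 2563, 2416 and 2533 normalised reads in WT and 1502 and 1755 in G2A MEFs, and here WT MEF 3 stood with the other WT libraries. The Trithorax activators, which keep active Hox genes on, had all 11 genes tested in each tissue and 0 called. Their medians were -0.04 in liver and 0.07 in MEFs. Dpy30, a subunit shared by its histone methyltransferases, was at 131, 126 and 124 FPKM in WT and 91.6, 90.4 and 105 in G2A liver (-0.41, limma adjusted p 0.0902), and at 1417, 1735 and 1225 normalised reads in WT and 2186 and 1946 in G2A MEFs. Of the retinoid, Cdx and Gdf11 genes that feed into Hox activation, 12 of 18 were tested in each tissue and 0 called. In liver Rarg was at 10.5, 8.61 and 9.28 FPKM in WT and 18.1, 21.0 and 9.97 in G2A. In MEFs Crabp1, a retinoic acid binding protein, was at 166 and 111 normalised reads in WT MEF 1 and 2, 5958 in WT MEF 3 and 27489 and 15627 in G2A.

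The genes flanking the clusters were read in the same way. Of 15 protein-coding neighbours 13 were tested in MEFs and 11 in liver, 0 were called in either, and the medians were 0.01 and 0.02. Mtx2, beyond the low-numbered end of cluster D, was at 1404, 1638 and 1731 normalised reads in WT and 2009 and 1941 in G2A MEFs, with no split between WT MEF 3 and the other WT libraries. Skap1, next to cluster B, was at 41.2 and 83.5 in WT MEF 1 and 2, 20.7 in WT MEF 3 and 124 and 148 in G2A, so WT MEF 3 was farthest from the G2A values. Lnp, a neighbour singled out after its values were seen, had the split of the Hox clusters. It was at 3269 and 3425 normalised reads in WT MEF 1 and 2, 1785 in WT MEF 3 and 1779 and 2036 in G2A. Cbx5 did not have it, at 12301 and 11610, then 8147, and 11022 and 11912. In liver Snx10 was at 4.50, 3.75 and 4.13 FPKM in WT and 6.01, 6.52 and 5.48 in G2A (limma adjusted p 0.107). Of the noncoding genes within the clusters, 8 of the 17 with MEF values and 1 of the 10 with liver values were tested, and 0 were called. Mira was at 78.3 and 128 in WT MEF 1 and 2, 304 in WT MEF 3 and 359 and 345 in G2A MEFs, and in liver at 7.30, 4.69 and 7.42 FPKM in WT and 10.3, 8.94 and 3.88 in G2A.

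Whether G2A and WT differed in the same way in liver and MEFs was tested gene by gene, as the difference between both log2 differences over its combined SE. FPKM and normalised reads were never set against each other. 26 Hox genes were tested in both tissues and 0 were called, where 1.34% of 10818 genes had a liver effect above the MEF effect and 0.869% one below it. The nearest were Hoxa9, higher in all G2A livers and inside the WT range in MEFs (liver minus MEF 1.70, SE 0.444, adjusted p 0.0668 from the limma fits), and Hoxa10 (2.73, SE 0.751, adjusted p 0.0822 from the limma fits). With a pseudocount of 0.1 in place of 1, Hoxa9 was called (2.32, adjusted p 0.0473 from the limma fits), where 1.5% of all genes were called above and 0.952% below. Without WT MEF 3, 3 genes were above (Hoxa9, Hoxa10 and Hoxd8) and 16 below, 14 of them in clusters B and C, where 14.6% and 15.5% of all genes were called. Side by side, the 3 highest values of Hoxa10 in liver were those of G2A, and its highest values in MEFs were those of WT MEF 1 and 2.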

How the data were processed

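Total RNA of fetal livers at E12.5 and of immortalized MEFs was sequenced by the authors. Trimming to 50 bases and alignment to mm9 by TopHat 2.1.1 are stated per the labels' protocols. Cufflinks 2.2.1 and the builds mm9 and mm10 are named in the submitters' processing notes. The liver values deposited by the authors were taken as FPKM, from the tool named and because they are not whole, since the header gives no unit. The MEF values are a normalised signal deposited by the authors. Checked on the values, each column is whole reads divided by 1 size factor (0.958 to 1.06, 100% whole within 0.01). No source used here gives the authors' annotation, counting tool or use of strand, so antisense and overlapping genes are uncertain: 18 of the 39 Hox genes share exon bases with another annotated gene (GENCODE on NCBIM37), 6 of them with another Hox gene, and Hoxa11 shares 1038 with Hoxa11as on the other strand.

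Columns were matched to samples by tissue, genotype and number in their names. In each tissue limma 3.58.1 (R 4.3.3, variance trend) modelled log2(value + 1) by genotype, with Benjamini-Hochberg adjustment at 0.05. Genes needed 1 FPKM in 3 liver libraries, or 10 normalised reads in 2 MEF libraries. The tissue difference used Satterthwaite degrees of freedom. Levels per kilobase used annotated exon length (all 39 genes). edgeR 4.0.16 and DESeq2 1.42.0 were run on the whole MEF reads as alternatives. On simulated data with 100 changed genes per size and no outlying library, limma recovered 100% (liver) and 93% (MEFs) of log2 changes of 1. The changed genes were drawn only from well-expressed genes, with noise set in advance. This recovery therefore does not carry over to Hox genes near the filter or with a large SE.

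The members and all lists were chosen with earlier results of these data known. Given library by library were members past the threshold, tested members whose groups do not overlap and the highest of each cluster, and from each other list up to 2 genes with the smallest p. Further members and Hotair, Evx2, Lnp, Cbx5, the microRNA entries and Meis1 were added after their values were seen. The values of 1 member are not reported here, though counts and sums include it.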

Additional observations from a re-analysis of the deposited data

How the results depend on the processing

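Of 160 counts of calls recomputed under the alternatives, 109 were within 1.5 times the value reported and 51 were not; of 309 values for single genes 268 kept direction and side of the threshold, 34 passed it and 7 changed sign. In liver, library weights gave 3376 genes higher and 2681 lower in G2A (26.1% and 20.7%), with 11 Hox genes higher, and the sample number as a replicate block gave 1 gene higher. In MEFs, DESeq2 gave 391 higher and 644 lower, with 1 Hox gene lower (Hoxd11, adjusted p 0.0192, NA for 615 genes). Deviations from the group mean correlated at 0.182, -0.0992 and 0.0993 between same-numbered livers, and at -0.22 to 0.133 between livers of unlike number. With 3 livers per group these values are tied to each other, so they cannot show whether the number marks a pair. With 2 MEF libraries per group the correlation is a single value up to its sign (0.0777) and says nothing on pairing. The replicate block in MEFs holds libraries 1 and 2 alone, leaving out WT MEF 3, and gave 1915 higher and 1869 lower, with 20 and 9 Hox genes. For the difference between tissues the block gave 1806 genes above and 1910 below, with 3 and 18 Hox genes, and a pseudocount of 0.1 gave 1 Hox gene above, Hoxa9 (adjusted p 0.0473). Hoxd3 in liver changed sign with a pseudocount of 0.1 (-0.0116) and with quantile normalization (-0.00422).

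With each library left out in turn, calls in liver ranged from 1 to 1604 higher and 1 to 1548 lower, with 0 to 6 Hox genes higher, and in MEFs from 0 to 1550 and 0 to 1525, with 0 to 19 and 0 to 9 Hox genes. For the difference between tissues they ranged from 2 to 1581 above and 0 to 1679 below, with 0 to 3 and 0 to 16 Hox genes. 3 liver genes changed sign in these: Hoxb2 (-0.16 to 0.50), Hoxc4 (-0.17 to 0.51) and Hoxd3 (-0.37 to 0.55). The high counts came without G2A liver 3 or WT MEF 3; the cause of the other shifts was not tested. Read depth limits the livers in a way that cannot be stated from FPKM.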

Other observations

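Other regional transcription factors of mesenchyme, whose genes lie outside the Hox clusters, were also unequal between MEF libraries. Of 45 listed, 35 were tested, and limma called 0 of them. In G2A, 2 were higher and 13 lower without overlap (18.9% and 18% of all genes tested). Osr1, a factor of intermediate and lateral mesoderm, was at 6115, 4393 and 3443 normalised reads in WT and 1299.7 and 1225 in G2A (log2 difference -1.84, limma adjusted p 0.26). Irx5 was at 2397, 2096 and 2113 in WT and 1449.6 and 1229 in G2A. In both, WT MEF 3 stood with the WT libraries.

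Other genes of that list, singled out after their values were seen, had the split of the Hox clusters. Tbx15, a skeletal and skin factor, was at 10427 and 7970.1 in WT MEF 1 and 2, 2269 in WT MEF 3, and 1874 and 1743 in G2A MEF 1 and 2. Lmx1b, the dorsal limb factor, was at 599.7 and 508, then 0, and 9.86 and 1.96. Tbx4, the hindlimb T-box gene, was at 191 and 105, then 4.70, and 3.94 and 0. Alx4 had the opposite order, at 6.18 and 0, then 3525, and 2905 and 2880.2. Among the TALE cofactors Meis1 was at 110.3 and 61.6, then 1439.8, and 708 and 671.

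In liver, likewise chosen after their values were seen, Hand1, a factor of lateral mesoderm, was at 10.6, 5.88 and 4.66 FPKM in WT and 43.2, 45.0 and 12.1 in G2A, and Pitx1, a hindlimb factor, at 8.70, 7.81 and 11.1 in WT and 23.6, 29.1 and 10.8 in G2A. Tbx4 was at 0.234, 0.165 and 0.723 in WT and 6.01, 5.20 and 2.105 in G2A. The entry Mir196a-1 was at 28.4 and 58.6 in G2A liver 1 and 2 and listed at 0 in the other 4 livers.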
